A study of Sus scrofa with 20 samples.

Results

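Small heat shock proteins of the heart are described here by 5 genes, HSPB1, HSPB2, HSPB3, HSPB6 and HSPB7, of 6765 genes named on a porcine array, which measured them with 6 of its 23999 tested probe sets. The members were taken by gene symbol from the platform's probe table. HSPB6 had 2 probe sets and each of the other 4 genes had 1. All 6 probe sets lay above the 30th percentile of signal, and only 1679 of the 23999 tested probe sets were at least as bright as the dimmest of them.

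Hearts of 20 female pigs were measured, 1 array per animal, in 4 groups of 5. RCS pigs underwent 90 min of low-flow ischemia by coronary stenosis, 6 times at intervals of 12 h. RCO pigs received 2 cycles of 10 min coronary occlusion and 10 min reperfusion, and this was repeated 6 times at intervals of 12 h. The sample labels of RCO mention the 10 min occlusions without the pairs of cycles, which come from the series description. SWOP, the classical second window of preconditioning, consisted of 2 such cycles given once and 24 h of reperfusion before sampling. Control pigs were sham-operated. The time from the last episode to sampling in RCS and RCO, the age and strain of the pigs, and the part of the heart that was sampled were not stated in the descriptions used here. The series sets the repeated protocols against the second window and asks, by its title, about different mechanisms of protection.

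Small heat shock proteins are chaperones that work without ATP. They share a conserved domain first known from lens crystallin, assemble into oligomers, and hold unfolding proteins until the ATP-driven HSP70 machinery can refold them or pass them on for degradation. Heart and skeletal muscle carry an unusually broad set of them, several bound to actin filaments, the Z-disc or desmin. HSPB1 (HSP27) and HSPB6 (HSP20) are also made by smooth muscle and are switched by phosphorylation. HSPB7 is a cardiac and muscle member that binds filamin C, while HSPB2 and HSPB3 form a complex with each other in muscle.

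The arrays themselves differed between groups. All array medians lay between 6.75 and 6.82, but the spread of signal was not the same. The interquartile range was 3.27 to 3.44 in RCS, 3.05 to 3.32 in RCO, 3.26 to 3.3 in SWOP and 3.04 to 3.16 in control. Its part in the differences of the members, which lie among the brighter probe sets, was not tested. The first principal component of all probe sets, with 48.9% of the variance, ran from 26.4 to 64.3 in RCS, −18.3 to 44 in RCO, −27.5 to −17.4 in SWOP and −39.9 to −26.6 in control. RCO replicates 2 and 3 stood at 44 and 29.4, within the range of the RCS arrays. The mean log2 signal of the bacterial spike-in transcripts was 10.18 to 10.4 in RCS and 10.53 to 10.6 in control, and reached 11.05 on RCO replicate 1 and 10.87 on SWOP replicate 1. The 3′ minus 5′ log2 signal of the actin control spots was 0.51 to 0.73 in RCS, 0.78 to 1.69 in RCO, 1.22 to 1.7 in SWOP and 1.24 to 1.96 in control. All RCS arrays thus lay below all controls, and the lowest RCO arrays were replicates 2 and 3, at 0.78 and 0.79. The part of this measure in the differences of the members was not tested. Markers of heart muscle cells averaged 13.51 to 14.24 over the 20 arrays (log2, 9 of 11 measured). Of 5 measured skeletal muscle markers (of 8), MYH2, TNNT3, TNNI2 and TNNC2 had group means of 4.22 to 6.20, and CKM, the muscle creatine kinase that heart also makes, 13.34 to 14.25.

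HSPB1, HSPB6 and HSPB7 rose against control in at least 1 protocol, and HSPB2 and HSPB3 passed in no comparison. HSPB1 rose in RCS. HSPB6 rose in RCS and in SWOP, as did HSPB7, which in RCO differed from control by −0.03. Differences are log2 values from limma with their standard error, and passing means an adjusted p (Benjamini-Hochberg, over all 23999) below 0.05. In RCS, 4 of the 6 probe sets rose against control, where 47.5% of all probe sets passed in either direction and 19.3% were higher. On these 4 the RCS and control arrays did not overlap, as happened upward for 14.8% of all probe sets. In SWOP 3 of the 6 rose, where 7.15% passed and 3.01% were higher. In RCO 0 of the 6 passed, where 10.7% of all did and 5.9% were higher, and at an unadjusted p below 0.05 the 2 HSPB6 probe sets did. Those shares are for adjusted p, and the share of all probe sets at the unadjusted limit is not given here. Among the 1679 probe sets at least as bright as the dimmest member, 33.7%, 15.7% and 6.55% were higher in RCS, RCO and SWOP. HSPB6 counts here with 2 probe sets. By gene, 3 of 5 rose in RCS, 0 in RCO and 2 in SWOP. Of all 6765 genes, each by its brightest probe set, 28.8%, 11.3% and 4.66% were higher. The median difference of the 6 probe sets was 0.41, 0.15 and 0.30 in RCS, RCO and SWOP, beside medians of −0.08, −0.03 and −0.01 over all tested probe sets. All 3 comparisons share the same 5 control arrays.

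**Figure D1:**
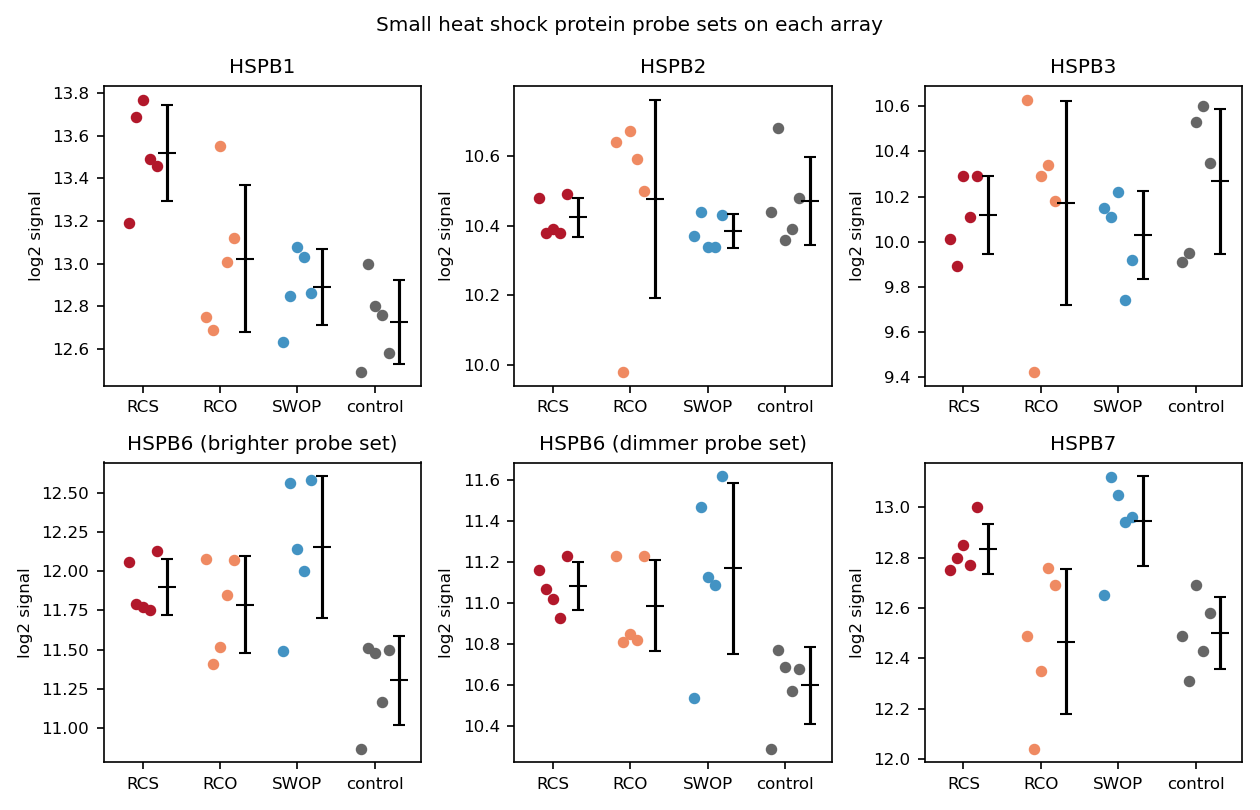
Log2 signal (vertical axes) of the 6 probe sets on each of the 20 arrays, with RCS, RCO, SWOP and control from left to right and 5 pigs per group. Points are arrays, and the bars beside them give the mean and SD. All 5 RCS points lie above every control point for HSPB1, both HSPB6 probe sets and HSPB7, while HSPB2 and HSPB3 overlap in all groups.

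HSPB1 encodes HSP27, which caps and protects actin filaments and is phosphorylated downstream of p38 kinase. Its log2 signal was 13.19, 13.69, 13.77, 13.49 and 13.46 on RCS replicates 1 to 5. It was 12.75, 12.69, 13.55, 13.01 and 13.12 on the RCO arrays, and 12.63, 12.85, 13.08, 13.03 and 12.86 on the SWOP arrays. The controls had 12.49, 13, 12.8, 12.76 and 12.58. Every RCS array thus exceeded every control array and every SWOP array, and RCO replicate 3 was the one RCO array inside the RCS range. HSPB1 rose 1.73-fold in RCS against control (13.52 ± 0.23 against 12.73 ± 0.20, SD, n = 5 per group, log2 difference 0.79 ± 0.15 SE, limma adjusted p = 0.000282). It was 1.55-fold higher in RCS than in SWOP (0.63 ± 0.15, limma adjusted p = 0.00295, without overlap, as for 12% of all probe sets upward) and 1.41-fold higher than in RCO (0.50 ± 0.15, limma adjusted p = 0.0253).

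The order of HSPB1 means was RCS, RCO (13.02 ± 0.34), SWOP (12.89 ± 0.18) and control. Neighbours below RCS did not differ beyond their spread. The 95% confidence interval was −0.17 to 0.44 for RCO minus SWOP and −0.14 to 0.47 for SWOP minus control. For RCO minus control it was −0.01 to 0.60 (limma adjusted p = 0.195). The calls of RCS against control and against SWOP held in all 10 fits without 1 array each. That of RCS against RCO was lost without RCO replicate 1 (limma adjusted p = 0.0671), RCS replicate 2 (0.059) or RCS replicate 3 (0.0787), after quantile normalization (0.0566), with only those 2 groups fitted (0.0917), and without both arrays of highest spike-in signal (0.0646).

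In these whole-tissue samples, a change in the number of cells of a type and a change in RNA per cell cannot be told apart. HSPB1 and HSPB6 are made in smooth muscle as well as heart muscle cells, so the marker lists of both stand beside them. The mean log2 level of 5 measured smooth muscle markers (of 7) was 11.27 to 11.73 in RCS, 10.52 to 11.49 in RCO, 10.62 to 11.17 in SWOP and 10.21 to 10.71 in control. Of all 6765 genes, set against control, RCS had 28.8% higher and 25.7% lower, RCO 11.3% higher and 4.26% lower, and SWOP 4.66% higher and 3.5% lower. In RCS 4 of these 5 smooth muscle markers rose and 1 fell, the largest being calponin, CNN1, at 2.22 ± 0.24. In RCO and in SWOP CNN1 alone passed, at 1.92 ± 0.24 and 1.49 ± 0.24. The 9 measured heart muscle cell markers averaged 13.51 to 14 in RCS, 13.92 to 14.12 in RCO, 14.12 to 14.24 in SWOP and 14.15 to 14.24 in control, with 7 of 9 lower in RCS against control. In RCO and SWOP 0 of 9 passed by limma, and 3 and 0 had an unadjusted p below 0.05, a limit for which the share of all genes is not given here. Of 5 measured fibroblast markers (of 7) 3 were higher in RCS and 2 in RCO, and of 4 measured macrophage markers (of 7) likewise 3 and 2. In alternative fits the RCS calls of COL1A2 and CD163 were lost in 7 and 11 of 17. Those of LUM, POSTN and FCER1G in RCO were lost in 4, 1 and 2 of 18. SMTN, ACTN2 and TNNT2, muscle markers named after their values were seen, lost their RCS calls in 6, 7 and 1 of 17. The fibroblast markers averaged 10.88 to 11.6 in RCS, 9.87 to 11.34 in RCO, 9.94 to 10.38 in SWOP and 9.27 to 10.47 in control. The macrophage markers averaged 8.65 to 9.3 in RCS, 8.02 to 9.83 in RCO, 7.38 to 8.04 in SWOP and 7.36 to 8.03 in control. The part of these cell types in the differences of the small heat shock proteins was not tested.

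HSPB6 encodes HSP20, a target of cyclic nucleotide-dependent kinases that binds 14-3-3 proteins once phosphorylated, and that protects the heart against ischemia when overexpressed in mice. On its brighter probe set the log2 signal was 12.06, 11.79, 11.77, 11.75 and 12.13 on RCS replicates 1 to 5. It was 12.08, 11.41, 11.52, 11.85 and 12.07 on the RCO arrays, and 11.49, 12.56, 12.14, 12 and 12.58 on the SWOP arrays. The controls had 10.87, 11.51, 11.48, 11.17 and 11.5. SWOP replicates 2 and 5 were the highest of the 20 arrays, while SWOP replicate 1, one of the 2 arrays of highest spike-in signal, lay inside the control range. All RCS arrays exceeded all controls.

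In RCS, HSPB6 rose 1.51-fold against control (11.90 ± 0.18 against 11.31 ± 0.28, SD, n = 5 per group, log2 difference 0.59 ± 0.19 SE, limma adjusted p = 0.0139). In SWOP it rose 1.80-fold (12.15 ± 0.45, difference 0.85 ± 0.19, limma adjusted p = 0.0149), with 4 of 5 arrays above the highest control. In RCO the difference of 0.48 ± 0.19 did not pass (11.79 ± 0.31, limma adjusted p = 0.102), also with 4 of 5 arrays above the highest control. The order of the means was SWOP, RCS, RCO and control, and no neighbours in it passed. The 95% confidence interval was −0.64 to 0.14 for RCS minus SWOP and −0.28 to 0.50 for RCS minus RCO, both including 0. For RCO minus control it was 0.09 to 0.87, above 0, at an unadjusted limma p of 0.0185. Farther apart in the order, RCO minus SWOP had an interval of −0.76 to 0.02. That difference passed without SWOP replicate 1 (−0.53, limma adjusted p = 0.0471). It also passed without both arrays of highest spike-in signal, SWOP replicate 1 and RCO replicate 1 (−0.61, limma adjusted p = 0.0295).

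The dimmer HSPB6 probe set was a second reading of the same gene. Its log2 signal was 10.93 to 11.23 in RCS, 10.81 to 11.23 in RCO, 10.54 to 11.62 in SWOP and 10.29 to 10.77 in control. It lay above control by 0.48 ± 0.15 in RCS (limma adjusted p = 0.0155), 0.39 ± 0.15 in RCO (0.111) and 0.57 ± 0.15 in SWOP (0.0332). All 5 RCO arrays exceeded all 5 controls on this probe set, as happened upward for 2.88% of all probe sets, and the two-sided exact permutation p was 0.00794, the smallest possible with 5 against 5. Deviations of single arrays from their group means followed each other on both probe sets (r = 0.943 over 20 arrays). Quantile normalization ended the dimmer probe set's calls in RCS (0.36, limma adjusted p = 0.0696) and SWOP (0.46, 0.0943), and the SWOP call was lost in 8 of 10 fits without 1 array, all but those without control replicate 3 or SWOP replicate 1 (limma adjusted p up to 0.0897). The brighter probe set kept both calls in all of these fits.

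HSPB7, the cardiovascular small heat shock protein, binds filamin C and helps keep the sarcomere's thin filaments in order. Its log2 signal was 12.75, 12.8, 12.85, 12.77 and 13 on RCS replicates 1 to 5. It was 12.49, 12.04, 12.35, 12.76 and 12.69 on the RCO arrays, and 12.65, 13.12, 13.05, 12.94 and 12.96 on the SWOP arrays. The controls had 12.49, 12.31, 12.69, 12.43 and 12.58. All RCS arrays and 4 of 5 SWOP arrays exceeded the highest control, whereas the RCO arrays lay on both sides of the control range.

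HSPB7 rose 1.26-fold in RCS against control (12.83 ± 0.10 against 12.50 ± 0.14, SD, n = 5 per group, log2 difference 0.33 ± 0.12 SE, limma adjusted p = 0.0255). In SWOP it rose 1.36-fold (12.94 ± 0.18, difference 0.44 ± 0.12, limma adjusted p = 0.0306). In RCO, at 12.47 ± 0.29, the difference from control was −0.03 with a 95% confidence interval of −0.28 to 0.21. RCO, the repeated form of the stimulus, was lower than SWOP, the single form, by −0.48 ± 0.12 (limma adjusted p = 0.0174), and this was the 1 member probe set of 6 that passed between these groups, where 10.1% of all did and 6.31% were lower. SWOP was sampled after 24 h of reperfusion and the time in RCO was not stated, so repetition and sampling time cannot be told apart here. RCS was higher than RCO by 0.37 ± 0.12 (limma adjusted p = 0.0356). The means ran from SWOP over RCS and control to RCO. SWOP and RCS did not differ beyond their spread (RCS minus SWOP −0.36 to 0.14, 95% confidence interval), nor did control and RCO.

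Several of the HSPB7 calls were narrow. The SWOP call against control did not hold without control replicate 2 (limma adjusted p = 0.0861), control replicate 4 (0.0745) or SWOP replicates 2 (0.0794), 3 (0.0688), 4 (0.0667) or 5 (0.0644), with differences of 0.40 to 0.52 over all 10 such fits. That of RCS against control was lost without control replicates 2 (0.0709) or 4 (0.052) or RCS replicate 5 (0.0612). That of RCO against SWOP was lost without SWOP replicate 2 (0.0514), with only the 2 groups fitted (0.0772), and without RCO replicates 2 and 3 together (−0.30, limma adjusted p = 0.0921). That of RCS against RCO was lost in 7 of 10 fits, those without RCO replicates 1, 2 or 3 or RCS replicates 2, 3, 4 or 5 (0.0536 to 0.0775), and stood at 0.19 without RCO replicates 2 and 3 (0.178). Array weights ended it as well (0.27, 0.0927), as did a fit of these 2 groups alone (0.105).

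HSPB2 encodes a muscle protein that binds the kinase mutated in myotonic dystrophy. Its log2 signal was 10.38 to 10.49 in RCS, 9.98 to 10.67 in RCO, 10.34 to 10.44 in SWOP and 10.36 to 10.68 in control. The group means of 10.42, 10.48, 10.38 and 10.47 in RCS, RCO, SWOP and control lay within 0.1 of each other. The 95% confidence interval of the difference from control was −0.26 to 0.17 in RCS, −0.21 to 0.22 in RCO and −0.30 to 0.13 in SWOP. RCO replicate 2, at 9.98, was the lowest of all 20 arrays, and the other 4 RCO arrays lay between 10.5 and 10.67.

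HSPB3, the muscle partner of HSPB2, was at 10.01, 9.89, 10.29, 10.11 and 10.29 on RCS replicates 1 to 5. It was at 10.63, 9.42, 10.29, 10.34 and 10.18 on the RCO arrays, and at 10.15, 10.11, 10.22, 9.74 and 9.92 on the SWOP arrays. The controls had 9.91, 9.95, 10.53, 10.6 and 10.35, so the groups overlapped throughout. The means ran from control (10.27) over RCO (10.17) and RCS (10.12) to SWOP (10.03), with no difference beyond the spread. The 95% confidence interval of the difference from control was −0.53 to 0.23 in RCS, −0.47 to 0.28 in RCO and −0.62 to 0.14 in SWOP. Of the 6 member probe sets it had the widest interval against control apart from the brighter HSPB6 probe set.

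**Figure D2:**
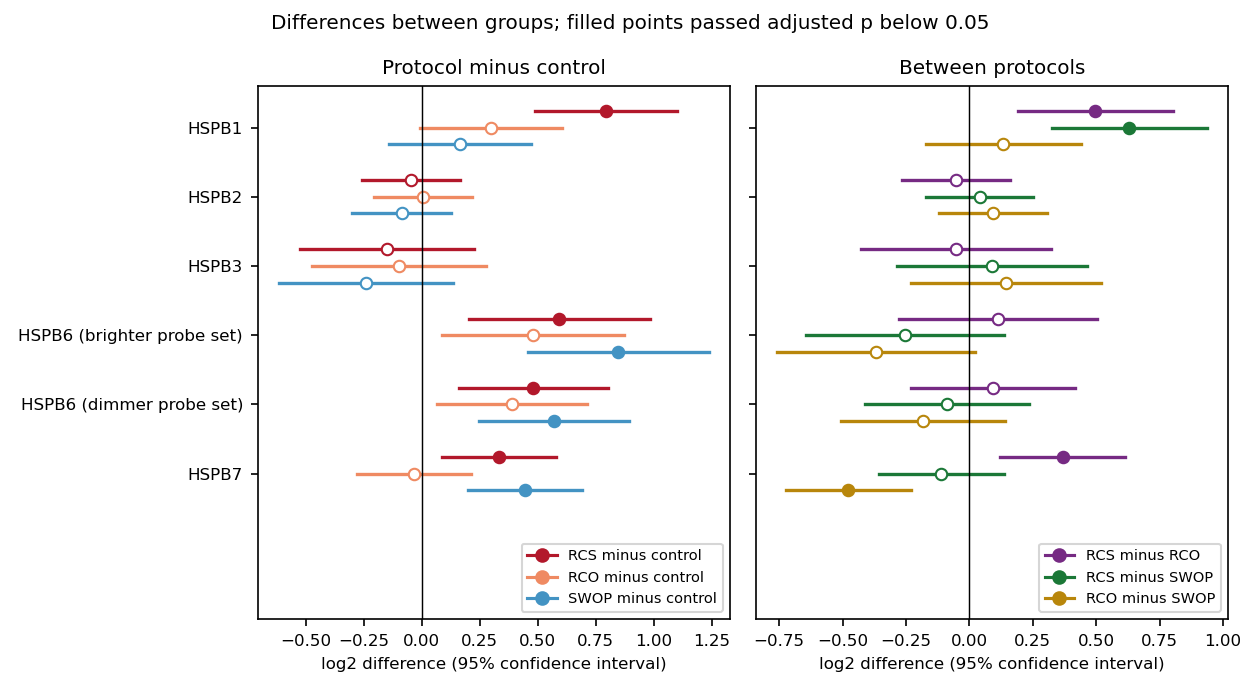
Log2 differences (horizontal axes) of the 6 probe sets, protocol minus control on the left and between protocols on the right, with lines for the 95% confidence interval of the limma fit. Filled points passed at an adjusted p below 0.05. HSPB1 stands apart by RCS minus each other group, HSPB7 by the position of RCO below RCS and SWOP, and all intervals of HSPB2 and HSPB3 include 0.

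Between the protocols, 2 of the 6 probe sets (HSPB1 and HSPB7) were higher in RCS than in RCO, where 19.1% of all probe sets passed and 8.75% were higher (13.5% among the 1679 brightest). In RCS against SWOP 1 of the 6, HSPB1, was higher, where 29.1% passed and 13.8% were higher (21.8% among the 1679 brightest). Between RCS and SWOP the differences of HSPB6 and HSPB7 were −0.25 ± 0.19 and −0.11 ± 0.12 and did not pass (limma adjusted p 0.329 and 0.517).

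Single arrays were low on several probe sets at once. RCO replicate 2 was the lowest RCO array on 6 of 6 member probe sets, and on 3 of these, HSPB2, HSPB3 and HSPB7, it was the lowest of all 20 arrays. SWOP replicate 1 was the lowest SWOP array on 4 of 6, those of HSPB1, HSPB6 and HSPB7. Control replicate 1, which enters every comparison with control, was the lowest control array on 4 of 6, those of HSPB1, HSPB3 and HSPB6, and the lowest of all 20 arrays on 3 of these, HSPB1 and both HSPB6 probe sets. Without it 4 member probe sets passed in RCS, 0 in RCO and 2 in SWOP. Without RCO replicate 2 the difference of RCO from control still passed on 0 of 6. Over the 20 arrays, deviations from the group mean correlated at 0.625 between HSPB6 and HSPB7, 0.546 between HSPB3 and HSPB7 and 0.498 between HSPB2 and HSPB3, against 0.061, 0.163 and 0.198 of HSPB1 with HSPB6, HSPB3 and HSPB7. These values describe probe sets read on the same arrays and carry no test.

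**Figure D3:**
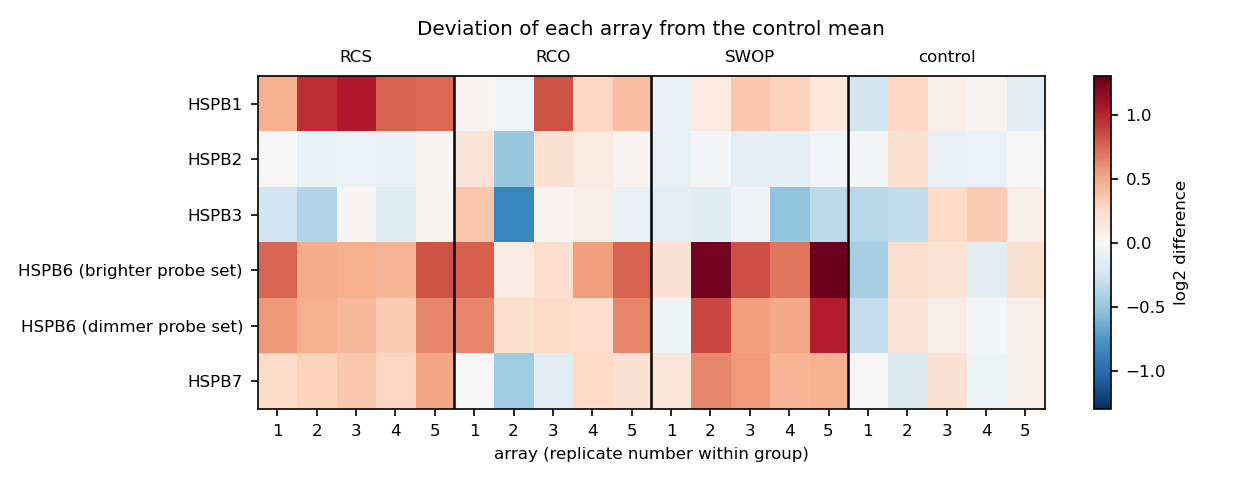
Deviation of each array from the control mean (colour, log2) for the 6 probe sets in rows and the 20 arrays in columns, grouped as RCS, RCO, SWOP and control. Red is above and blue below the control mean. RCS is red in rows HSPB1, HSPB6 and HSPB7, SWOP mainly in HSPB6 and HSPB7, and RCO replicate 2 is the lowest RCO array in every row.

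Of 6 other small heat shock proteins listed, 4 were measured. CRYAB, alpha B-crystallin, the chaperone of desmin, rose in RCS by 0.66 ± 0.13 against control (limma adjusted p = 0.000357). It had 13.96, 14.43, 14.47, 14.19 and 14.35 on the RCS arrays and 13.88, 13.36, 14.21, 13.91 and 13.91 on the RCO arrays. It had 13.66, 13.89, 14, 13.9 and 13.67 in SWOP and 13.57, 13.6, 13.77, 13.59 and 13.57 in control. As with HSPB1, RCS stood above every control array. CRYAB was higher in RCS than in SWOP (0.46 ± 0.13, limma adjusted p = 0.00932) and in RCO (0.43 ± 0.13, 0.0248). The RCO comparison was lost without RCS replicate 2 or 3 or with only the 2 groups fitted (limma adjusted p up to 0.107). CRYAB differed from control by 0.23 ± 0.13 in RCO and 0.20 ± 0.13 in SWOP, neither passing, and the RCO difference passed without RCO replicate 2 (limma adjusted p = 0.0416).

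HSPB8, which works with the cochaperone BAG3 to clear damaged sarcomere proteins, rose in RCS by 0.61 ± 0.21 against control (limma adjusted p = 0.0197). In RCO it was at 12.02, 11.08, 12.35, 12.51 and 12.85, against 11.64 to 11.79 in control. The RCO difference of 0.45 ± 0.21 did not pass (limma adjusted p = 0.164), but without RCO replicate 2, at 11.08 the lowest of all 20 arrays, HSPB8 passed, as it did with array weights and without RCO replicates 2 and 3 (limma adjusted p down to 0.00245). In SWOP, at 11.54 to 11.88, the difference was −0.04 ± 0.21. HSPB11, a member by name that belongs to the transport machinery of cilia, passed in no comparison with control. ODF1, a sperm tail protein of the family read here just below the 30th percentile of signal, fell in RCS by 0.52 ± 0.12 (limma adjusted p = 0.00201) and in SWOP by 0.42 ± 0.12 (0.0434). Its SWOP call was lost after quantile normalization, after median centring and in 8 of 10 fits without 1 array, those without control replicates 2 to 5 or SWOP replicates 2 to 5.

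HSPB2 and CRYAB lie next to each other in mammalian genomes, and their gene models overlap in the RefSeq annotation of the pig assembly Sscrofa11.1. HSPB2 passed in no comparison, so its means give no order of groups to set against that of CRYAB. HSPB2 had a difference of −0.05 ± 0.10 in RCS against control, where CRYAB rose. A second CRYAB probe set, far dimmer, shares the number stem of its name with the HSPB2 probe set. It ran from 6.93 to 7.55 in RCS, 5.57 to 7.03 in RCO, 5.12 to 7.31 in SWOP and 6.58 to 10.11 in control, with control replicate 4 the highest of the 20 arrays, and passed against control in no protocol (limma adjusted p = 0.501, 0.121 and 0.0913 in RCS, RCO and SWOP). Since the strand and exact target of these probe sets were not available here, which of the overlapping genes each of these probe sets reads is uncertain.

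Among 5768 other genes above the 30th percentile of signal, CRYAB was the one whose log2 signal was most like that of HSPB1 over the 20 arrays (r = 0.921, and 0.795 for deviations from group means). The next were CD151 (0.898) and LRRC42 (0.891). For HSPB6 the nearest were PIGP (0.812), CHCHD2 (0.804) and CYSTM1 (0.803), and for HSPB7 COPS7A (0.874), GYS1 (0.861) and RDH11 (0.859). These correlations include the differences between groups, are shared by probe sets of the same arrays, and are given as a description.

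**Figure D4:**
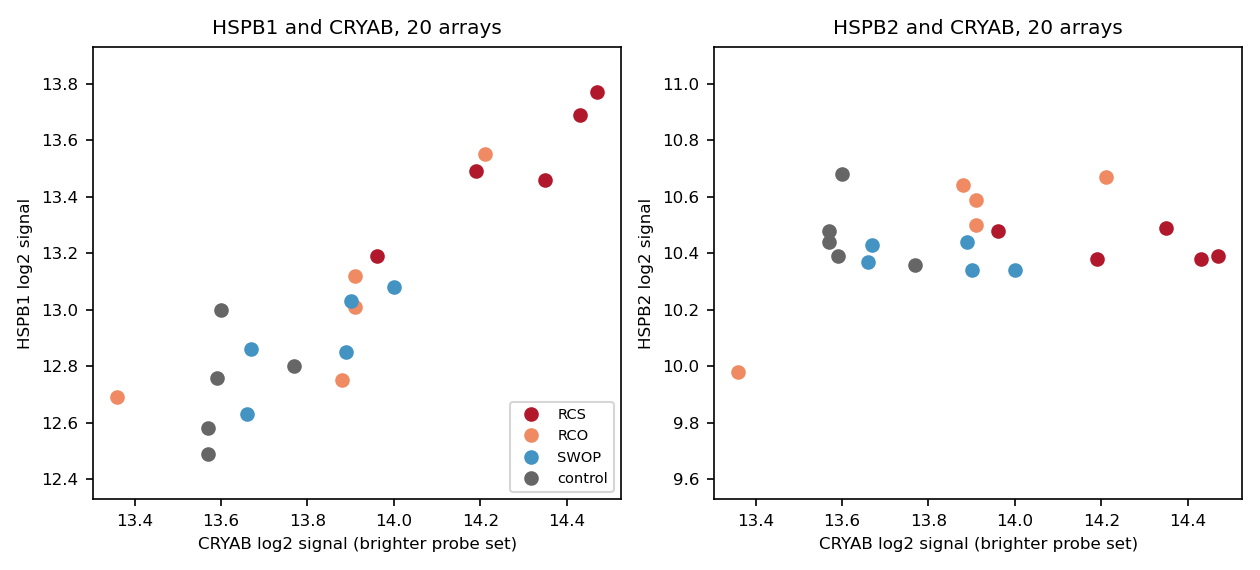
Log2 signal of HSPB1 (left, vertical axis) and HSPB2 (right, vertical axis) against the brighter CRYAB probe set (horizontal axes) on 20 arrays, coloured by RCS, RCO, SWOP and control, with vertical axes of equal length. HSPB1 rises along CRYAB with the RCS arrays at the upper right, whereas HSPB2 lies between 10.34 and 10.68 on all arrays but RCO replicate 2, at 9.98.

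Other chaperones and cochaperones, listed here as partners of small heat shock proteins, rose in part in RCS, RCO and SWOP. Of 26 partners listed, 19 were measured. In RCS 13 rose and 0 fell against control, in RCO 6 rose and 0 fell, and in SWOP 3 rose and 0 fell. Over all 6765 genes 28.8%, 11.3% and 4.66% were higher in RCS, RCO and SWOP. The median difference of the 19 partners was 0.42, 0.34 and 0.09, beside 0.00, 0.01 and 0.04 over all genes.

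HSPH1, a nucleotide exchange factor of HSP70, was higher by 2.34 ± 0.26 in RCS and 2.76 ± 0.26 in RCO, and its difference in SWOP was 0.13. HSPA6, an inducible HSP70, was higher by 3.97 ± 0.68 in RCS and 5.32 ± 0.68 in RCO. DNAJB1, which delivers substrates to HSP70, was higher by 1.92 ± 0.41 in RCS and 3.05 ± 0.41 in RCO, and DNAJA1 by 0.87 ± 0.17 and 1.08 ± 0.17. All 8 of these differences passed (limma adjusted p from 2.29e-06 to 0.00115). These 4 were the partners of smallest p in RCS and in RCO, and 13 of the 19 partners did not pass in RCO. Between RCS and RCO 0 of the 19 partners passed by limma in the fit of all arrays, with DNAJB1 nearest at an adjusted p of 0.0569. Without RCO replicate 2, 5 partners were lower in RCS than in RCO, HSPA6 by −2.06, DNAJB1 by −1.60, HSPH1 by −0.71, DNAJB4 by −0.64 and STIP1 by −0.24 (limma adjusted p from 0.00131 to 0.0481). DNAJB4 and STIP1 were named after their values were seen. BAG1 went the other way, higher in RCS than in RCO without RCO replicate 1 (0.54, limma adjusted p = 0.00352). With array weights BAG1 was also higher in RCS (0.35, limma adjusted p = 0.0366), and DNAJB1 (−1.12, 0.0332) and DNAJB4 (−0.50, 0.0459) were lower. Without RCS replicate 1, DNAJB1 was lower as well (−1.35, limma adjusted p = 0.0344). Without RCO replicates 2 and 3, a setting chosen after seeing the data, 5 partners were lower in RCS. These were DNAJB4, DNAJB1, HSPA6, STUB1 and HSPH1 (limma adjusted p from 0.000534 to 0.0224). BAG3, the partner of HSPB8 and named after its values were seen, was higher by 1.02 ± 0.23 in RCS and 1.12 ± 0.23 in RCO (limma adjusted p = 0.00148 and 0.00474). Its RCO call was lost with only the 2 groups fitted (0.0671).

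RCO replicate 2 was low here too, being the lowest RCO array for 13 of the 19 partners. HSPA6 was at 9.1 on that array and at 11.88 to 13.13 on the other 4, and BAG3 at 10.74 against 11.4 to 12.53. In SWOP the 3 partners that rose were HSPA4 at 0.68 ± 0.15, STUB1, a ubiquitin ligase of chaperone clients, at 0.36 ± 0.10, and BAG1 at 0.53 ± 0.15 (limma adjusted p = 0.016, 0.0411 and 0.0443). Those calls were lost in 1, 8 and 10 of 10 fits without 1 array. HSPA4 was lost without control replicate 4, and STUB1 kept its call without control replicate 3 or SWOP replicate 1.

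**Figure D5:**
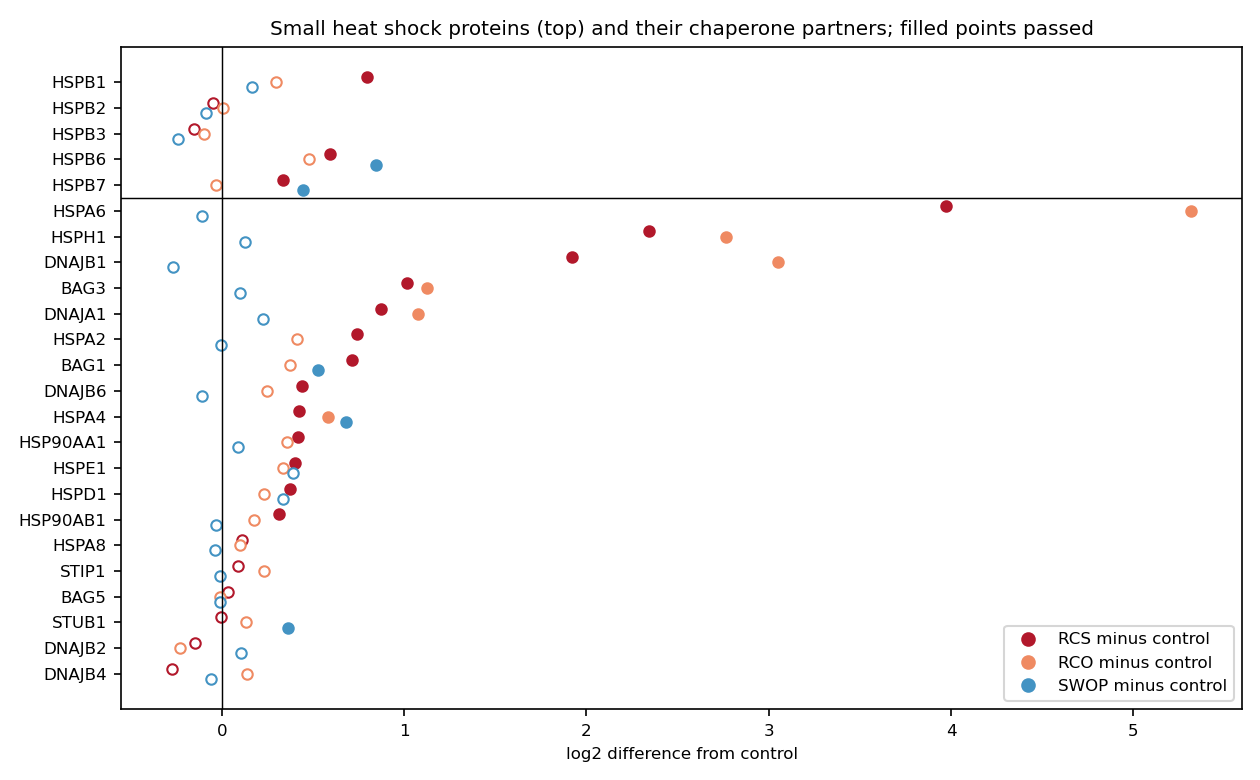
Log2 difference from control (horizontal axis) of the 5 small heat shock protein genes (top, HSPB6 by its brighter probe set) and of 19 chaperone partners (below), for RCS, RCO and SWOP. Filled points passed at an adjusted p below 0.05. The partners at the top of the lower panel reach 5.32 (HSPA6, RCO), while the members stay between −0.24 and 0.85.

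Of 5 listed heat shock factors and regulators, 3 were measured. HSF1, the master activator of heat shock genes, and HSF2 passed in no comparison with control in the fit of all arrays as deposited. HSF2 in SWOP (limma adjusted p = 0.0812) passed with array weights, with only the 2 groups fitted and without SWOP replicate 1 (down to 0.00605). After quantile normalization HSF1 was lower in RCS (limma adjusted p = 0.0199). HSBP1, a small protein that binds HSF1 and restrains it, was higher in RCS (0.49 ± 0.11, limma adjusted p = 0.00166) and in RCO (0.49 ± 0.11, 0.0093), the RCO call being lost with only the 2 groups fitted (0.0847). In SWOP it stood at 0.37 ± 0.11 (0.0504) and passed after median centring, with array weights, with the replicate block and with only the 2 groups fitted (down to 0.00245).

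The kinases that phosphorylate small heat shock proteins and the 14-3-3 proteins that bind HSPB6 had 10 of 14 members measured. In RCS 3 rose and 2 fell against control, in RCO 0 rose and 1 fell, and in SWOP 0 passed. The shares of all genes higher and lower were 28.8% and 25.7% in RCS, 11.3% and 4.26% in RCO, and 4.66% and 3.5% in SWOP. Both catalytic subunits of protein kinase A, the kinase that acts on HSPB6, fell in RCS, PRKACA by 0.32 ± 0.09 and PRKACB by 0.56 ± 0.17 (limma adjusted p = 0.00893 and 0.0107). The 14-3-3 genes YWHAQ and YWHAB rose in RCS by 0.81 ± 0.13 and 0.46 ± 0.08 (9.42e-05 and 0.000239). The remaining gene that rose in RCS, YWHAZ (0.50, 0.0449), named after its values were seen, lost its call after quantile normalization and without control replicates 3, 4 or 5 or RCS replicates 2, 3 or 4 (up to 0.157). PRKACA also fell in RCO (−0.32, limma adjusted p = 0.0351), a call lost in 7 of 10 fits without 1 array, those without control replicates 1, 2, 4 or 5 or RCO replicates 1, 2 or 3. At an unadjusted p below 0.05, 2 of the 10 genes differed in SWOP. The shares above are for adjusted p, and that of all genes at the unadjusted limit is not given here.

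Clients in the cytoskeleton and sarcomere had 13 of 18 members measured, of which 7 rose and 5 fell in RCS, 0 rose and 3 fell in RCO, and 1 rose and 1 fell in SWOP. Of all genes 28.8% were higher and 25.7% lower in RCS, 11.3% and 4.26% in RCO, and 4.66% and 3.5% in SWOP. The clients' median difference was 0.37, 0.07 and 0.04, beside 0.00, 0.01 and 0.04 over all genes. Desmin, DES, the intermediate filament that CRYAB protects, rose in RCS by 0.79 ± 0.15 and in SWOP by 0.60 ± 0.15 (limma adjusted p = 0.000348 and 0.0248), and its RCO difference of 0.46 ± 0.15 did not pass (0.0556). The SWOP call of DES did not hold when control replicate 1 or 4, or SWOP replicate 2, 3 or 4, was left out (up to 0.0675). The RCO difference of DES passed in 5 of 18 alternative fits (limma adjusted p down to 0.0162). These left out dim probe sets, control replicate 5 or RCO replicate 2, or used array weights or the replicate block. FLNA, filamin A, rose in RCS by 1.15 ± 0.21 (0.000215). The keratin gene KRT18 fell by 0.68 ± 0.11 in RCS and by 0.45 ± 0.11 in SWOP (8.74e-05 and 0.0233), and TCAP, the Z-disc anchor of titin, by 0.32 ± 0.08 in RCS and 0.47 ± 0.08 in RCO (0.00253 and 0.00177). The KRT18 call in SWOP was lost without control replicate 2 or 4 or SWOP replicate 4 or 5 (up to 0.07). Titin, TTN, fell by 0.41 ± 0.07 in RCS and by 0.34 ± 0.07 in RCO (0.000254 and 0.0068), and cardiac actin, ACTC1, by 0.60 ± 0.08 and 0.41 ± 0.08 (1.45e-05 and 0.0036). The TTN call in RCO was lost with only the 2 groups fitted and without RCO replicates 2 and 3 together (up to 0.063).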

How the data were processed

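The log2 signals were used as deposited. They were made by the authors with RMA and MAS5, per the submitters' processing notes, without a version or the role of each. The log base was taken as 2 from the range of values, and the number of arrays limits the precision (median standard error 0.111). Per the labels' protocols, Trizol-extracted total RNA was converted to biotin-labelled RNA for a 1-colour array. Raw scanner files were not used here.

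Of 24123 probe sets, 124 control spots were left out. Of the 23999 tested, 10069 had 1 gene symbol, 198 several and 13732 none, for 6765 genes. Entries with 1 symbol numbered 10099, of which 9989 matched RefSeq gene identifiers. Lists used each gene's probe set of highest mean signal. The 4 group means were fitted by limma 3.58.1 (lmFit, then eBayes, in R 4.3.3) over all 20 arrays, which left 16 residual degrees of freedom, and adjusted p-values are Benjamini-Hochberg over all tested probe sets. All 6 member probe sets are reported. From each list up to 4 genes of smallest p were named in each comparison with control, a reading of the rule made after the values were seen, and for the other small heat shock proteins all. Genes named beyond that are marked. Members and lists were chosen with earlier results of these data known. The fit was tested on simulated data. Figures used Python 3.11.15 and matplotlib 3.10.9. Same-numbered arrays were checked for pairing, and the alternatives tried are given at the end. Sequences of probe sets, transcripts and promoters were not used here.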

Additional observations from a re-analysis of the deposited data

Results flagged for a closer look

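In groups of 5 arrays, a value was singled out where its gap to the nearest other array exceeded 0.71 of the group's range (Dixon's critical value), which chance does in about 1 of 20 groups. Of 44 groups (11 probe sets of small heat shock proteins, members and others, in 4 groups), 3 held such a value. HSPB2 on RCO replicate 2 was at 9.98, with the other 4 arrays between 10.5 and 10.67 (gap 0.754 of the range). CRYAB (brighter probe set) on control replicate 3 was at 13.77, with the others between 13.57 and 13.6 (0.85). ODF1 on SWOP replicate 1 was at 5.74, with the others between 5.18 and 5.33 (0.732).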

How the results depend on the processing

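The count of member probe sets that passed was 4 in RCS, 0 in RCO and 3 in SWOP against control, 2 in RCS against RCO, 1 in RCS against SWOP and 1 in RCO against SWOP. With a limit of 1.5-fold as well these were 2, 0, 1, 0, 1 and 0. The shares of all probe sets under that limit are not given here. After quantile normalization the counts against control were 3 in RCS, 0 in RCO and 2 in SWOP. Of all probe sets 42.7%, 11.7% and 3.99% then passed in either direction. Each difference from control that passed as deposited was then smaller, as for HSPB1 in RCS (0.68, from 0.79). In RCS against RCO the count was 1 after quantile normalization and with array weights, where 16.4% and 21.1% of all probe sets passed. With only the 2 groups fitted it was 0 in RCS against RCO and 0 in RCO against SWOP, where 3.88% and 3.6% of all passed. Under the unadjusted exact permutation test RCO against control had 1, and the share of all probe sets under that test is not given here. Leaving out each array in turn gave 3 to 4, 0 to 0, 1 to 3, 0 to 2, 1 to 1 and 0 to 2, in the same order. In settings chosen after seeing the data, the count of RCS against RCO was 1 and that of RCO against SWOP 0 without RCO replicates 2 and 3, and they were 1 and 2 without both arrays of highest spike-in signal. Of 732 differences of single probe sets computed under these alternatives, 684 kept their side of the threshold, 45 lost a call and 3 gained one. The sign turned in 21, none of which passed in either fit. The cause of these changes was not tested.

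Same-numbered arrays of different groups correlated in their deviations at −0.179 to 0.44, over 0.1 in 10 of 30 pairs, and 11 of 20 arrays correlated best with their own number. Between RCS and RCO 4 of 5 pairs were over 0.1, at 0.0775 to 0.44. The numbers were not taken as pairs, because in no comparison were all 5 over 0.1 and the labels name no shared litter or day. Whether arrays of 1 number share a factor was not tested further. With the replicate block the counts of members were unchanged (4, 0, 3, 2, 1 and 1), and of the 19 chaperone partners DNAJB1 gained a call in RCS against RCO (−1.13, limma adjusted p = 0.0484).

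Counts over all probe sets moved more. SWOP against control had 1716 (957 after quantile normalization, 5710 with array weights, 4091 with only the 2 groups, from 480 without control replicate 4 to 2023 without control replicate 3, with 528 to 903 without control replicates 2 or 5 or SWOP replicates 2 to 5), of which 42.1% were higher as deposited and 57.2% after median centring. RCO against control had 2571 (564 with only the 2 groups, 1323 without RCO replicate 3, 1528 without control replicate 2, 4251 without RCO replicate 5), RCO against SWOP 2414 (863, 1376 without RCO replicate 3, and 1006 to 1375 without SWOP replicates 2 to 5) and RCS against RCO 4572 (931, 2053 without RCS replicate 3, 2945 and 2410 without RCO replicates 1 and 5, 7448 without RCO replicate 2).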
